A study of Triticum aestivum with 18 samples.

Results

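TraesCS7A02G135900 is the gene on chromosome 7A that the study's annotation matches to Protein RKD3 of Arabidopsis thaliana, and it is called the RKD3-type gene here. It was taken as 1 gene of 107892 high-confidence genes of bread wheat (Triticum aestivum), of which 62692 passed the filter of 1 CPM, the count scaled to the library total, in any library and were tested. The study lists it among known regulators of embryogenesis whose levels changed between the days in Nanda, both to Day 7 and from Day 7 to Day 21, so the values of the Nanda libraries are given as a description, and only contrasts between Sadash libraries carry a test. RNA-seq was performed on microspore cultures of the spring wheat genotypes Nanda, which is highly embryogenic, and Sadash, which responds poorly. In each genotype, samples were taken of isolated microspores on Day 0, of proembryos on Day 7 and of embryo-like structures (ELS) on Day 21, with 3 biological replicates, giving 6 groups and 18 libraries. All groups came from spikes of growth-chamber plants that had received a cold pre-treatment. The RNA came from pooled cells or structures, and ELS of differing size were collected together, so that fewer cells of a type and less RNA per cell cannot be told apart. The libraries held between 6675262 and 27463269 counts of high-confidence genes, and 3 counts corresponded to between 0.113 and 0.429 CPM.

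RKD proteins are small plant transcription factors with an RWP-RK domain, named after a conserved stretch of amino acids. In Arabidopsis, RKD1 and RKD2 are active in the egg cell, and forcing their expression in other cells switches on egg cell genes. The larger NIN-like proteins (NLP) carry the same domain and act in nitrate responses, and EC1 proteins are small cysteine-rich proteins that the Arabidopsis egg cell secretes to activate sperm cells at fertilization.

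The RKD3-type gene was detected on Day 7 in both genotypes and in none of the libraries of the other days. In Nanda on Day 7, the 3 libraries held 109, 110 and 83 counts, equal to 6.97, 8.71 and 7.53 TMM-normalized CPM. In Sadash on Day 7, the 3 libraries held 132, 232 and 149 counts, equal to 11.3, 17.5 and 10.5 CPM. The 12 libraries of Day 0 and Day 21 held 0 counts each, so the 6 Day 7 libraries and the other 12 did not overlap. The single annotated transcript of the gene had whole-number estimated counts in all 18 libraries.

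**Figure D1:**
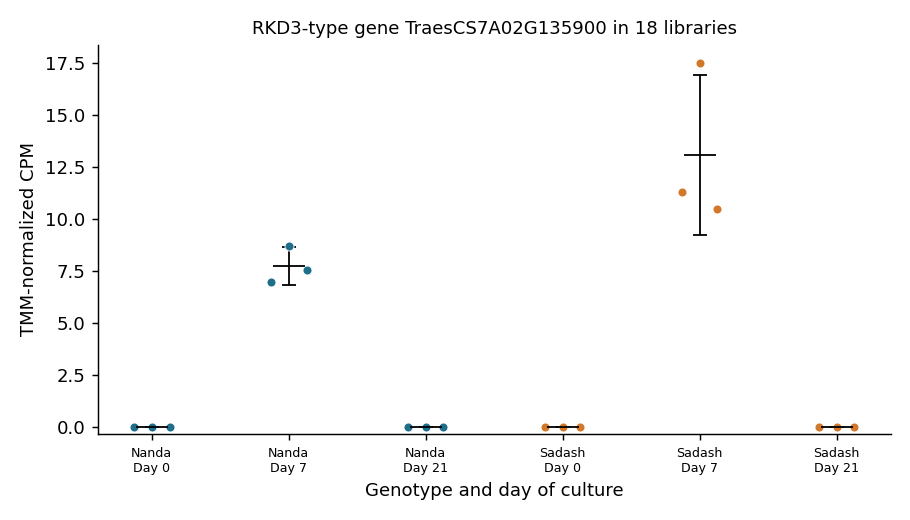
Level of the RKD3-type gene TraesCS7A02G135900 (y axis, TMM-normalized CPM) in each library of the 6 groups of genotype and day (x axis); points are libraries, the wide bar is the mean and the whiskers are the SD of 3 replicates. Only the Day 7 groups lie above 0, with Nanda between 6.97 and 8.71 CPM and Sadash between 10.5 and 17.5 CPM.

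By group, the order of the levels was Sadash Day 7, at 13.1 ± 3.84 CPM (SD, n = 3), then Nanda Day 7, at 7.74 ± 0.891 CPM (SD, n = 3), then the other 4 groups at 0. In TPM, a share of transcripts that takes transcript length into account, the means were 18.5 ± 6.42 TPM in Sadash and 9.29 ± 1.18 TPM in Nanda (SD, n = 3 each). The gene thus lay above 69.4% to 73.8% of the tested genes in the Nanda Day 7 libraries and above 79.2% to 88.6% of them in the Sadash Day 7 libraries. The replicates of Nanda differed by a coefficient of variation of 11.5%, beside a counting error of 10.1%, pooled over the counts of the 3 libraries. Those of Sadash differed by 29.3%, beside a counting error of 7.87%, with replicate 2 well above replicates 1 and 3.

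In Sadash, the RKD3-type gene rose from Day 0 to Day 7 and fell from Day 7 to Day 21, and both changes passed the test. The gene was chosen with earlier results of these data known, and it passed the filter of 1 CPM only through Day 7 libraries. The tests are therefore not independent evidence of the direction of these changes. Because neither Day 0 nor Day 21 gave a count, the size of each change is a lower bound, computed as if every library of the empty group had held 3 counts. On that basis, the mean on Day 7 was at least 58.1-fold higher than on Day 0 (edgeR quasi-likelihood test, adjusted p = 5.56e-07). It was at least 54.3-fold higher than on Day 21 (edgeR, adjusted p = 3.14e-07). These folds compare means, and the lowest Sadash Day 7 library lay 40.7-fold above the highest floor of Sadash Day 0. A call needed a log2 fold change of 1 or more in size together with an adjusted p below 0.01, and 28.0% of the tested genes were called between Sadash Day 7 and Day 0, with 16.0% higher and 12.0% lower on Day 7. Between Sadash Day 21 and Day 7, 35.2% were called, with 16.8% higher and 18.4% lower on Day 21. Leaving out 1 Sadash Day 7 library gave lower bounds from 48.4-fold to 64.0-fold against Day 0 and from 45.1-fold to 59.7-fold against Day 21. The floor of the empty group was kept fixed, so the effect of leaving out one of its libraries was not tested. In Nanda, the corresponding lower bounds were 37.9-fold against Day 0 and 42.5-fold against Day 21, given as a description. Sadash Day 21 replicate 2, the library with the lowest total, had the highest floor, and even the lowest Sadash Day 7 library lay 24.4-fold above it.

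On Day 7, all 3 Sadash libraries lay above all 3 Nanda libraries for this gene. The Sadash mean was 1.69 times the Nanda mean in CPM, and the fitted log2 difference of Nanda minus Sadash was -0.76 ± 0.30 (SE), given with no test because Nanda libraries had been used to list the gene. All Sadash libraries lay above all Nanda libraries for 16.6% of the tested genes, and the reverse held for 20.8%. The ratio was 1.77 with RLE size factors, 1.89 with no scaling factor and 1.99 in TPM, and the ranges remained apart on each of these scales. Leaving out Sadash replicate 2, the highest library, reduced the size of the fitted log2 difference to -0.49. The summed TPM of the 11 GAMYB-type factors, which act in anther and pollen development, was also higher in Sadash Day 7, at 61.7 to 75.8 TPM, than in Nanda Day 7, at 37.9 to 45.8 TPM. The 8 genes annotated to the anther and male gametophyte summed to 462, 195 and 270 TPM in the Sadash Day 7 libraries and to 430 to 510 TPM in those of Nanda. These ranges overlapped, with 2 of the 3 Sadash libraries below all of Nanda. The part of such differences in cell state in the level of the RKD3-type gene was not tested.

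In the shortened copy of the study's sheet of transcription factors used here, 6 genes were matched to RKD proteins, 4 of them to RKD3 and the other two to RKD1, and all 6 were tested. Further RKD-type genes could stand in the tables without a description, so sums and shares below are over these 6. All 6 rose in Sadash from Day 0 to Day 7, beside 16.0% of all tested genes. Since the list holds genes that the study had selected on the Nanda libraries, this count is not independent evidence of its direction. From Day 7 to Day 21 in Sadash, 5 of the 6 fell, beside 18.4% of all tested genes. The median log2 fold change over the 6 genes was -3.70, beside a median of 0 over all tested genes. It was the same when the RKD3-type gene was set to its bound. The count of falls is not independent evidence either, for the same reason.

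The gene closest to the RKD3-type gene in its pattern among the 6 was TraesCS6B02G336200, matched to RKD1. It held 73, 64 and 64 counts in Nanda Day 7 and 90, 111 and 142 counts in Sadash Day 7. It held no count in Day 0 and Nanda Day 21 libraries, and a single count in Sadash Day 21 replicate 3. On the length-adjusted scale it was the most abundant of the 6 on Day 7, with a level of 22.8 ± 3.19 TPM in Nanda and 44.7 ± 6.13 TPM in Sadash (SD, n = 3 each). Like the RKD3-type gene, it was higher in all 3 Sadash than in all 3 Nanda libraries on Day 7, by a ratio of 1.68 in CPM. In Sadash it was at least 38.6-fold higher on Day 7 than on Day 0 (edgeR, adjusted p = 3.22e-07).

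**Figure D2:**
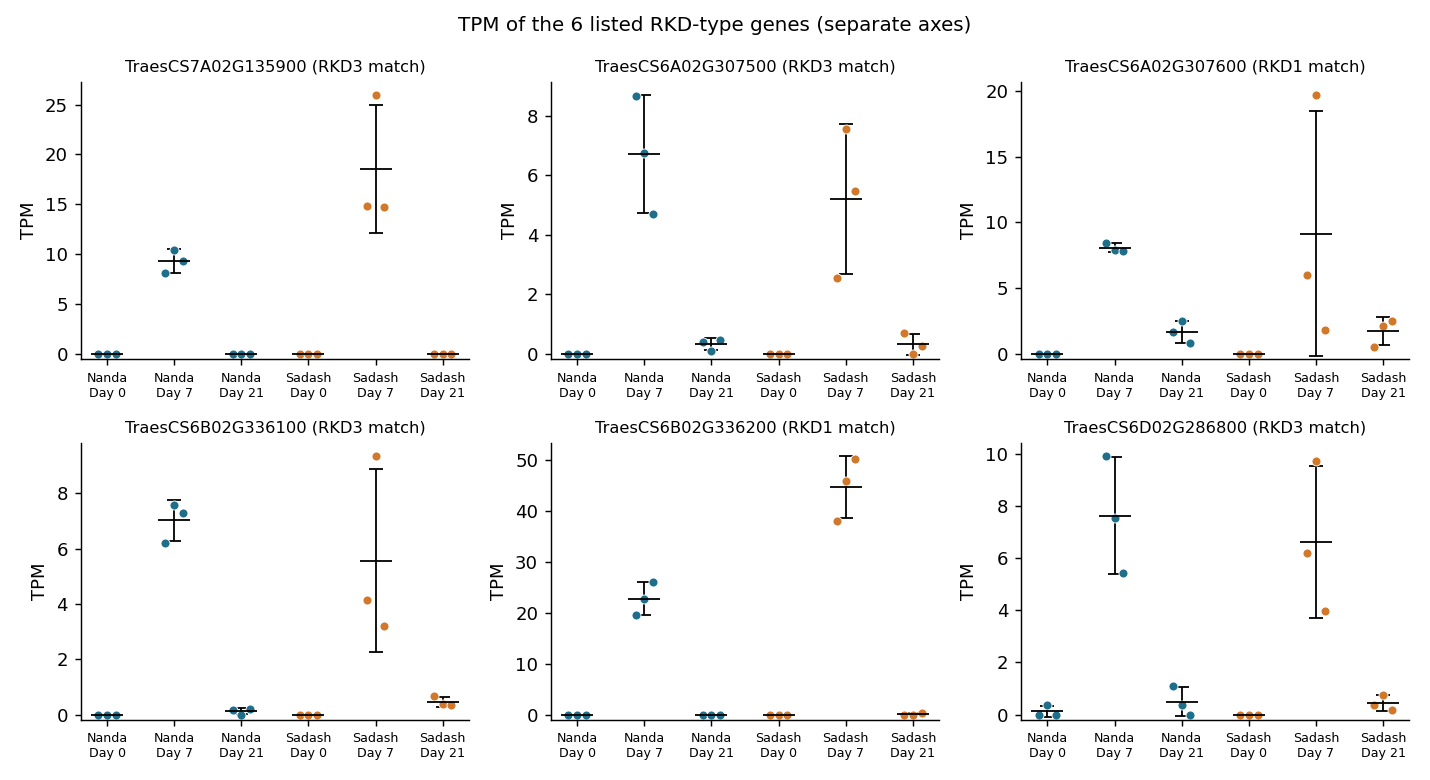
Levels (y axis, TPM, a separate axis per panel) of the 6 listed RKD-type genes in the 6 groups of genotype and day (x axis); points are libraries, the wide bar is the mean and the whiskers are the SD of 3 replicates. All 6 had their highest group means on Day 7, and 4 of them kept a low level on Day 21, where the RKD3-type gene was at 0.

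The other 4 RKD-type genes differed from the RKD3-type gene on Day 21, where each of them still had counts in both genotypes. TraesCS6A02G307600, matched to RKD1, kept 20.7% of its Day 7 TPM in Nanda and 18.9% in Sadash, and its decrease in Sadash missed the threshold, with a log2 fold change of -2.40 ± 0.82 (edgeR, adjusted p = 0.0211). TraesCS6A02G307500, matched to RKD3, kept 4.82% in Nanda and 6.16% in Sadash, and fell by 3.46 ± 0.65 on the log2 scale in Sadash (edgeR, adjusted p = 0.000397). Single libraries moved these shares in Sadash, to 44.4% for TraesCS6A02G307600 without Day 7 replicate 2 and to 2.60% for TraesCS6A02G307500 without Day 21 replicate 1. For the 2 remaining genes matched to RKD3, the share kept was 1.85% and 8.38% for TraesCS6B02G336100 and 6.47% and 6.63% for TraesCS6D02G286800, in Nanda and Sadash respectively. For TraesCS6B02G336100 leaving out replicate 2 of Nanda Day 21 gave 2.78%, and leaving out replicate 2 of Sadash Day 7 gave 12.7%. For TraesCS6D02G286800 leaving out replicate 1 of Nanda Day 21 gave 2.49%, and leaving out replicate 2 of Sadash Day 21 gave 4.15%. These low levels rest on 2 to 16 counts over the 3 libraries of a group, whereas the RKD3-type gene had 0 in all 6 Day 21 libraries.

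Between Sadash Day 21 and Day 0, where 46.2% of the tested genes were called and 24.0% were higher on Day 21, 2 of the 6 RKD-type genes were called, TraesCS6A02G307500 (edgeR, adjusted p = 0.00786) and TraesCS6B02G336100 (edgeR, adjusted p = 0.00721). Both calls rest on 16 and 10 counts. The number called was 0 without Nanda Day 7 replicate 2 or without any 1 of the Sadash Day 0 replicates, and 1 without Nanda Day 21 replicate 1, Sadash Day 21 replicate 1 or Sadash Day 21 replicate 2. The RKD3-type gene had no count in either group, so no change between these days could be measured.

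The 4 genes also differed from the RKD3-type gene between the genotypes. Their Day 7 ranges overlapped, and their mean CPM in Sadash was between 0.648 and 0.935 times that in Nanda. For TraesCS6A02G307600, the ratio was 1.05 with no scaling factor and 1.14 in TPM, so that its direction depended on the scaling, whereas the other three stayed below 1 on each scale. The summed level of the 6 RKD-type genes was 61.5 ± 1.27 TPM in Nanda Day 7 and 89.7 ± 24.8 TPM in Sadash Day 7 (SD, n = 3 each). Of this sum, the RKD3-type gene supplied 15.1% ± 1.68 in Nanda and 20.4% ± 1.7 in Sadash (SD, n = 3 each), and the highest Nanda library, at 16.6%, lay below the lowest Sadash library, at 18.6%. On Day 0 the sum was at most 0.38 TPM in any library, and on Day 21 it was between 1.49 and 3.61 TPM.

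The 5 genes matched to EC1.1, the egg cell-secreted protein, were measured beside the RKD-type genes because EC1 marks the egg cell. All 5 rose in Sadash from Day 0 to Day 7, beside 16.0% of all tested genes, and fell from Day 7 to Day 21, beside 18.4%, although the list again comes from the Nanda Day 7 calls and is not independent evidence. Their summed level was 58.6 to 72.3 TPM in Nanda Day 7 and 97.1 to 181 TPM in Sadash Day 7, and at most 5.35 TPM in any library of the other days. The most abundant in CPM, TraesCS7B02G351300, had 179, 109 and 80 counts in Nanda Day 7 and 129, 110 and 164 counts in Sadash Day 7, with overlapping ranges. It was at least 45.7-fold higher on Sadash Day 7 than on Sadash Day 0 (edgeR, adjusted p = 1.01e-06).

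Of the 5 EC1 genes, 3 were higher in all Sadash than in all Nanda libraries on Day 7, beside 16.6% of all tested genes. They were TraesCS7A02G451500, TraesCS7D02G440400 and TraesCS7D02G440500, with ratios of 1.95, 2.56 and 2.82 in CPM. From Day 7 to Day 21 in Sadash, the log2 fold changes of the 5 genes ran from -7.33 to -5.34, with a median of -6.08. The size of these falls is uncertain, since each gene held only 2 to 4 counts over the 3 Sadash Day 21 libraries. Between Sadash Day 21 and Day 0, beside 46.2% of all tested genes, 0 of the 5 were called by edgeR, 0 had an unadjusted p under 0.05, and 0 were called by DESeq2.

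**Figure D3:**
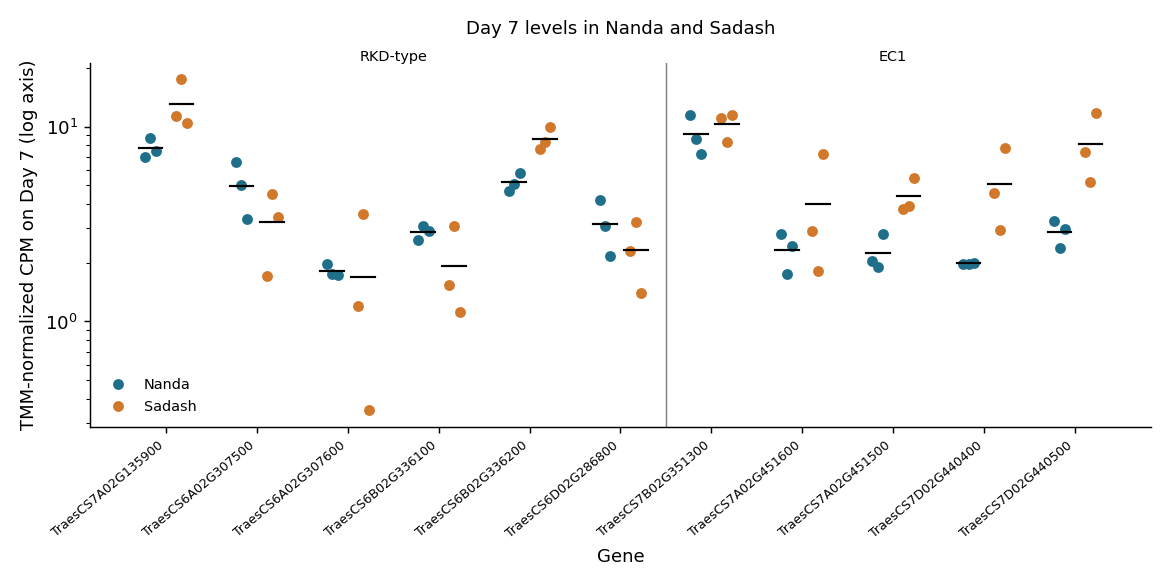
Day 7 levels (y axis, TMM-normalized CPM, log axis) of the 6 RKD-type and 5 EC1 genes (x axis) in Nanda and Sadash; points are the 3 libraries of each genotype and bars are means. The RKD3-type gene and TraesCS6B02G336200 were higher in all Sadash libraries, while the other RKD-type genes overlapped.

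Within Sadash Day 7, the RKD-type and EC1 genes did not order the libraries alike. Replicate 2 was the highest library for 5 of the 6 RKD-type genes, the RKD3-type gene included, and the lowest for 4 of the 5 EC1 genes. Replicate 3 was the highest for all 5 EC1 genes and the lowest for 4 of the 6 RKD-type genes, again with the RKD3-type gene among them. Within Nanda Day 7, replicate 2 was the highest for the RKD3-type gene and 1 other RKD-type gene, and the lowest for 4 of the 5 EC1 genes.

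The 4 NLP genes of the shortened sheet share the RWP-RK domain and need not be the whole family. They did not follow the RKD3-type gene from Day 7 to Day 21, where 0 of the 4 were called lower in Sadash. Their Pearson r with the RKD3-type gene over the 18 libraries lay between -0.05 and 0.40. In Sadash, beside 16.0% of all tested genes, 2 of the 4 rose from Day 0 to Day 7. They were TraesCS5A02G497800, by 2.40 ± 0.48 on the log2 scale (edgeR, adjusted p = 0.000471), and TraesCS5B02G501500, which had no count on Day 0. The latter had a mean of 2.56 CPM on Day 7 and 1.65 CPM on Day 21. At an unadjusted p under 0.05 in edgeR, all 4 were higher on Day 7 than on Day 0 in Sadash. At that level, 0 of the 4 were lower on Day 21 than on Day 7. All 4 were called higher on Day 21 than on Day 0, beside 24.0% of all tested genes, and each still had counts on Day 21. In Nanda, TraesCS4D02G083200 had a mean of 2.44 CPM on Day 0, 6.49 CPM on Day 7 and 13.2 CPM on Day 21, given as a description.

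Marker genes of the cell types that the cultures could hold, taken from the same shortened sheets, were summed in each library and set beside the RKD3-type gene. The summed level of 3 LEC1-type NF-YB subunits and 1 of the 3 listed BABY BOOM type factors, which drive embryo identity, was at most 0.5 TPM in any Day 0 library, 54.7 to 84.7 TPM in Day 7 libraries and 44.7 to 77.2 TPM in Day 21 libraries. Unlike the RKD3-type gene, these markers stayed on at Day 21. The 8 genes annotated to the anther and male gametophyte summed to at most 0.26 TPM on Day 0, to 195 to 510 TPM on Day 7 and to 179 to 235 TPM on Day 21. Most of the Day 7 sum came from TraesCS4A02G203700 and TraesCS4D02G104500, with means of 216 and 78.2 TPM in Sadash. From Day 7 to Day 21 in Sadash, 4 of the 8 genes were called higher and 1 lower, with a median log2 fold change of 1.86. The sum therefore does not show the direction of most members. The GAMYB-type factors were highest on Day 0, at 202 to 218 TPM, and lowest on Day 21, at 10.1 to 15.5 TPM.

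Vicilin storage proteins, markers of seed maturation, summed to 794 to 1767 TPM on Day 21. Nanda Day 7 replicate 3 stood apart with 109 TPM of vicilins, against 1.39 and 2.65 TPM in replicates 1 and 2. Its level of the RKD3-type gene, 7.53 CPM, lay between those of replicates 1 and 2. Sadash Day 7 replicate 3 had 7.88 TPM of vicilins, against 0.71 and 0.69 TPM in replicates 1 and 2. Its level of the RKD3-type gene, 10.5 CPM, was the lowest of its group, beside 11.3 and 17.5 CPM. A relation between vicilins and the RKD3-type gene was not tested.

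Other gene families from the study's sheets were examined in the Sadash contrasts for the same pattern of a rise to Day 7 followed by a fall. Over all tested genes, 16.0% rose and 12.0% fell to Day 7, and 16.8% rose and 18.4% fell from Day 7 to Day 21. All 18 HD-ZIP IV factors, which act in the epidermis, rose by Day 7, and 8 of them fell and 3 rose again to Day 21. Of the 30 WRI/AIL factors of the AP2 family, 18 rose by Day 7 and 16 rose from Day 7 to Day 21. One of them, TraesCS7D02G483200, matched to AIL5, had 65.3 CPM on Day 7 and 55.4 CPM on Day 21 in Sadash. Of the 15 WOX genes, homeobox factors of stem cell niches and early embryos, 10 rose by Day 7, after which 6 rose and 2 fell. Of the 13 growth-regulating factors, 6 rose by Day 7 and 10 rose from Day 7 to Day 21. Of the 10 ABI3-type B3 factors, 4 rose and 2 fell by Day 7, and 5 rose and 3 fell from Day 7 to Day 21. Of the 8 NF-YB subunits, 3 rose by Day 7, after which all 8 missed the threshold in edgeR, with 5 higher and 3 lower at an unadjusted p under 0.05. Of the 5 SOSEKI polarity proteins, 4 rose by Day 7, after which 1 rose and 1 fell. The GAMYB-type factors went the other way in the first transition only, with 8 of 11 falling by Day 7. From Day 7 to Day 21, 6 of 11 fell, the same direction as most RKD-type genes. The single CYP78A gene, TraesCS4B02G330500, had 5.74 CPM on Day 7 and 0.47 CPM on Day 21 in Sadash, and both its changes were called. These lists hold the study's calls for Nanda Day 7 against Day 0, so their counts for the first transition are not independent evidence of direction. The second transition starts from the same day on which the lists were chosen, so its counts are not independent of that choice either.

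The genes whose pattern was most like that of the RKD3-type gene were sought by Pearson's r of log2(CPM + 1) over the 18 libraries, among the 50752 genes that averaged 1 CPM or more. These r values are descriptive, since the libraries come in 6 groups and all such genes share the contrast of Day 7 with the other days. In all, 125 genes had r above 0.95. The most alike, at r = 0.998, was TraesCS3B02G504800, matched to a rice B3 domain protein, a plant DNA-binding family. It held 105, 142 and 83 counts in Nanda Day 7 and 127, 241 and 149 counts in Sadash Day 7, with at most 2 counts in any other library. Its highest Day 7 library was replicate 2 in both genotypes, as for the RKD3-type gene. This is not a separate likeness, since the ranking by r used the same libraries.

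The next in order were TraesCS6A02G342500, matched to a heat shock cognate 70 kDa chaperone (r = 0.995), and the RKD1-type gene TraesCS6B02G336200 (r = 0.994). TraesCS6A02G342500 had 280, 249 and 124 counts in Nanda Day 7 and 224, 929 and 352 counts in Sadash Day 7, and 0 in all other libraries. Among the 10 most alike were also TraesCS2A02G470000, matched to a BTB/POZ and MATH domain protein, a type that can bring substrates to ubiquitin ligases (r = 0.991), and TraesCS3D02G017900, with the siah-type domain of another group of ubiquitin ligases (r = 0.989). TraesCS6B02G104800 has an FBD domain (r = 0.989), and TraesCS5D02G361300, TraesCS2B02G385500 and TraesCS5B02G280400 had no description at hand.

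The highest in CPM among the 10 was TraesCS5D02G376200, described as a pollen-specific leucine-rich repeat extensin, a cell wall protein (r = 0.989). Its mean level was 83.8 ± 5.93 CPM in Nanda Day 7 and 117 ± 25.7 CPM in Sadash Day 7 (SD, n = 3 each), against at most 0.98 CPM in any other library. Counting described genes alone added TraesCS3A02G518400, matched to the rice meiotic F-box protein MOF (r = 0.988), TraesCS7D02G091700, described as a 2-hydroxy-palmitic acid dioxygenase (r = 0.985), and TraesCS6A02G260200, matched to the Arabidopsis helicase MAGATAMA 3, known for its role in the gametophyte (r = 0.983). The EC1 gene TraesCS7B02G351300 ranked at 18 (r = 0.983) and TraesCS7A02G451500 at 21 (r = 0.982). TraesCS6A02G307500, the only other RKD-type gene with a mean of at least 1 CPM, ranked at 175 (r = 0.938). With Spearman's rho, 3 of the 10 genes remained among the 10 most alike.

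**Figure D4:**
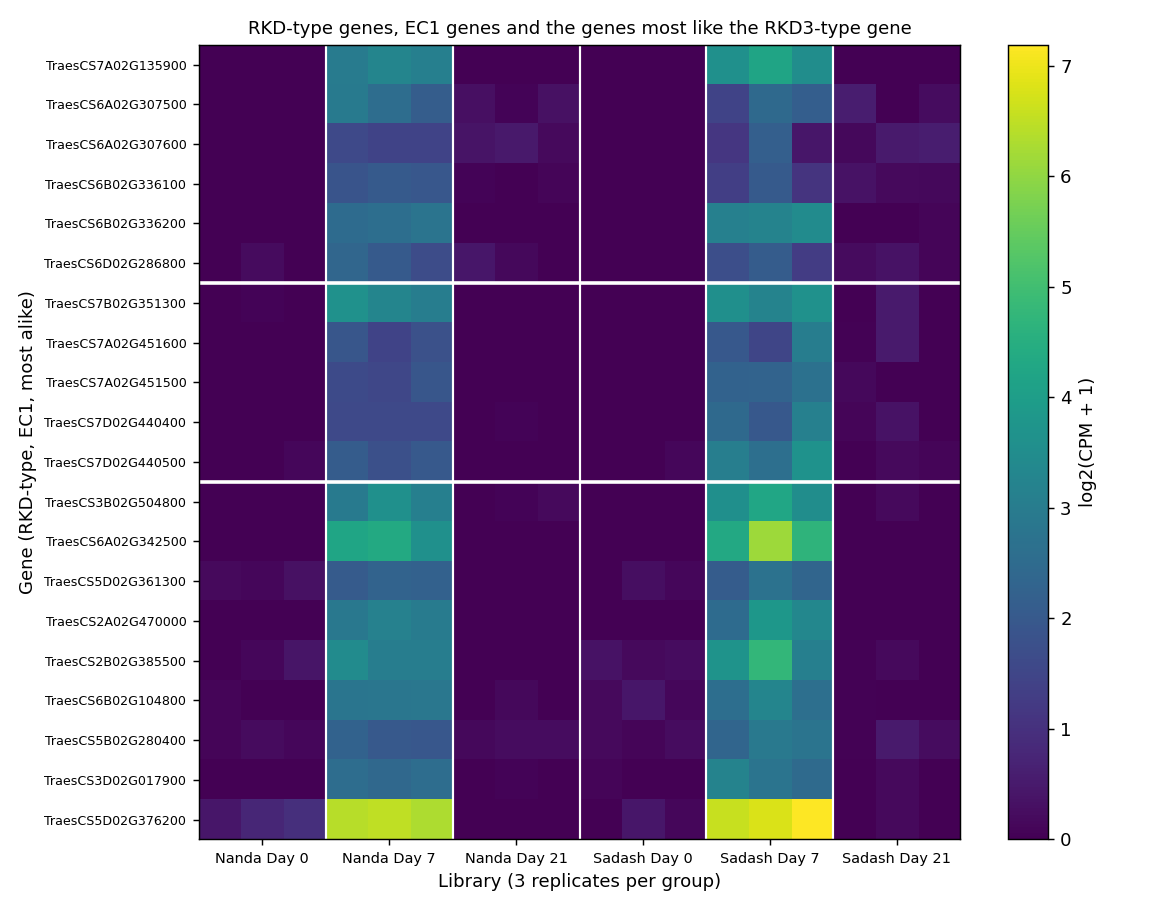
Level as log2(CPM + 1) (colour) of the 6 RKD-type genes, the 5 EC1 genes and the other 9 of the 10 genes most like the RKD3-type gene (rows, in 3 blocks) in the 18 libraries (columns, grouped by genotype and day). The Day 7 columns of both genotypes stand out in every row except TraesCS6A02G307600, where Sadash replicate 3 was low, and the most alike genes share the near-empty Day 0 and Day 21 columns of the top row.

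A profile with counts in all 6 Day 7 libraries and none in the other 12 was found in 46 of the 62692 tested genes, or 0.0734%. This profile is that of the RKD3-type gene itself, so the inclusion of this gene was given in advance. By mean CPM on Day 7, the RKD3-type gene was number 4 among these 46, at 10.4 CPM. Above it stood TraesCS6A02G342500 at 27.1 CPM, TraesCS3A02G518400 at 13.2 CPM and TraesCS3D02G016700, described as a beta-fructofuranosidase, at 11.2 CPM, the last of which was named after its values had been seen. The other 5 RKD-type genes and the 5 EC1 genes were not among the 46, since each had at least 1 count on Day 0 or Day 21.

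The identifiers that neighbour the RKD3-type gene on chromosome 7A did not show its restriction to Day 7. Of the 5 high-confidence identifiers on each side, 3 were tested. TraesCS7A02G135700 and TraesCS7A02G135800 precede it, and TraesCS7A02G136300 follows it. TraesCS7A02G135800 had mean levels between 3.57 and 7.45 CPM in the 6 groups, and both it and TraesCS7A02G136300 had counts in all 18 libraries. TraesCS7A02G136300 had means of 15.9, 31.3 and 8.95 CPM in Sadash and of 33.9, 29.1 and 10.3 CPM in Nanda on Day 0, Day 7 and Day 21, so its highest mean was on Day 7 in Sadash and on Day 0 in Nanda. TraesCS7A02G135700 had between 0.86 and 2.87 CPM, and its highest mean was in Nanda Day 0. The 7 untested neighbours had between 0 and 34 counts over all 18 libraries.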

How the data were processed

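Total RNA of 18 microspore culture libraries was sequenced as paired ends. Whether the counting used strand is not given in the sources used here, so antisense reads cannot be told apart. The authors trimmed reads with Trimmomatic 0.39, aligned them to IWGSC v1.1 with STAR 2.7.5a and deposited RSEM 1.3.3 expected counts per transcript, in which reads shared by near-identical copies are divided. A matching table of TPM was deposited as well. Counts and TPM were summed over transcripts, counts were rounded, and 107892 high-confidence genes were used. The 161536 low-confidence genes, with 5.14% to 6.88% of counts, entered 1 alternative.

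edgeR 4.0.16 (TMM, quasi-likelihood test, 6 groups, all 18 libraries) was fitted to the 62692 genes that reached 1 CPM in any library. Benjamini-Hochberg adjustment covered all of them, and a call needed an adjusted p below 0.01 with a log2 fold change of 1 or more in size. SE was taken from the F statistic. The labels call the replicates biological, but give no plants, so p-values measure the spread between these samples. The fit was tested on simulated data. A fold against a group at 0 used 3 counts per library as its floor, which covers counting error only.

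The member and the 14 lists were chosen with earlier results of these data known, and the lists and descriptions come from the study's sheets. The copies of these sheets are shortened, so no list need be complete, and the one behind the EC1 list holds only the strongest changes. Named were the RKD, NLP and EC1 genes, the 2 members of each other list with the highest mean CPM, 5 neighbours on each side, and the 10 genes, and 10 described genes, with the highest r. The alternatives were DESeq2 1.42.0, RLE factors, other filters, a replicate block, limma 3.58.1 (limma-trend) with pseudocounts of 1 and 0.1 on log2 TPM, fits of only the 6 libraries compared, low-confidence genes, and each library left out. R 4.3.3, Python 3.11.15, numpy 2.4.6, pandas 2.3.3 and matplotlib 3.10.9 were used. Columns of the authors' fold changes and p-values were not used.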

Additional observations from a re-analysis of the deposited data

How the results depend on the processing

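The calls of the RKD3-type gene in Sadash were kept under all 27 alternatives, with an adjusted p between 8.64e-15 and 5.71e-05 for Day 7 against Day 0 and between 4.96e-15 and 9.01e-05 for Day 21 against Day 7 (edgeR, DESeq2 or limma). No value could be had where both groups were at 0, which were Day 21 against Day 0 in each genotype and Nanda against Sadash on Day 0 and Day 21. On Day 7, the log2 difference of Nanda minus Sadash ran from -0.94 to -0.49. All 6 RKD-type genes were called between Sadash Day 7 and Day 0, except that 5 were with only the 6 libraries compared. For Sadash Day 21 against Day 0, the 2 RKD-type genes called became 0 with limma-trend on log2(TPM + 1) and 0 with only the 6 libraries compared, and ran from 0 to 3 when each library was left out in turn. The setting with only the 6 libraries compared reduced the genes called from 17537 to 11071 for Sadash Day 7 against Day 0. For Sadash Day 21 against Day 7 it reduced them from 22090 to 14130, and for Nanda against Sadash on Day 7 from 8030 to 3592. This setting has fewer samples from which to estimate the spread.

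Over all groups pooled, libraries of the same replicate number did not deviate together. The median r was -0.02 over 45 pairs of the same number and 0.02 over 90 pairs of other numbers. On average, 6 of 18 libraries were more alike to those of their own number. Single pairs of groups differed from this. Between Nanda and Sadash on Day 21, r was 0.17, 0.16 and 0.39 for replicates 1, 2 and 3. It was -0.13, -0.25 and -0.17 on Day 0, and -0.23, -0.01 and 0.14 on Day 7. The replicate block left the RKD3-type gene called in Sadash, with an adjusted p of 4.54e-06 and 2.83e-06 (edgeR), and moved the number of RKD-type genes called between Sadash Day 21 and Day 0 to 1. Of the 10 genes most alike, 3 remained with Spearman's rho and 8 each with log2(CPM + 4) and log2(TPM + 1). A count of 0 allows a level of up to 0.113 to 0.429 CPM, depending on the library, so a count of 0 on Day 0 or Day 21 does not show that the gene was silent.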
